A study of Mus musculus with 84 samples.

Results

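The genes described here lie on the distal part of mouse chromosome 4, between 148 and 160 Mb in the GRCm38/mm10 coordinates of the deposited table. A gene was included when its smallest exon start lay from 148000001 to 160000000 and its reads over all 84 libraries totalled 84 or more, an average of 1 read per library. Of 242 table entries that start in the interval, 71 had a smaller total and 6 were left out by name, which leaves 165 genes of 43629 in the table and of 21074 that reach the same total anywhere in the genome. The first is Nppa (chr4:148000722-148002079) and the last is Vmn2r-ps159 (chr4:156331103-156339499). Just inside the total were Rps15a-ps3 with 86 reads, Gm23303 with 89 and Ankrd65 with 100, and just outside were Ccdc27 with 79, Gm13134 with 77 and Tnfrsf18 with 72. The interval was proposed with the group difference of its genes already known, so the share of its genes that differed between the groups is given as a description and supports nothing. By GENCODE annotation on that build, 127 of the genes are protein coding, 15 are antisense RNAs, 5 are lincRNAs, 6 are processed transcripts, 5 are processed pseudogenes and 3 are small nuclear RNAs.

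The study sequenced the ventrolateral striatum, a ventral forebrain region built mainly of medium spiny neurons, from 84 naive adult mice that received no treatment. The animals belong to S4 mice of the SOT and NOT lines, which were selected on ethanol preference together with withdrawal, and are labelled High Drinker (44 animals, 21 female and 23 male) or Low Drinker (40 animals, 18 female and 22 male). The labels give the drinking group of each animal but not whether it is SOT or NOT. The line of each animal is therefore unknown here, and a difference of line cannot be separated from that of drinking group. The sample numbers fall into 3 sets, called sheet sets here, with 48, 30 and 6 libraries, and High Drinker animals made up 30, 11 and 3 of them. That the sets are batches is inferred from the numbering only.

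This end of chromosome 4 is gene dense and corresponds to the tip of the short arm of human chromosome 1. Genes that lie close together on a chromosome are inherited together, so selected lines often carry different haplotypes over long stretches, and a haplotype can raise some of its genes and lower others. The genes here have no common function. They include sugar and ion transporters, enzymes of pentose phosphate metabolism, chromatin regulators, secreted and matrix proteins, ubiquitin ligase adaptors and the subunits of peroxisomes and kinetochores. No genotype was analysed here.

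The libraries held 22190363 to 41300401 counted reads, and 4 libraries (High Drinker 17 and Low Drinker 8, 33 and 34) stood apart by a low mean correlation with the others, between 0.9542 and 0.9604 against a median of 0.9754. Medium spiny neuron markers were present in every group, with summed levels from 521 to 11140 CPM (read counts scaled to a common library size) among High Drinkers and from 298 to 9510 CPM among Low Drinkers. All 10 of these markers had a higher fitted level in High Drinkers (median log2 fold change 0.12), 0 of them past the threshold described below or at an unadjusted p under 0.05 (edgeR). With their mean as a further term 41 genes of the interval passed in place of 33, beside 5.9% of all tested genes in that fit. No list of the 8 for cell types of the region held a gene that passed the group test (edgeR, adjusted p under 0.05), and 4 of their genes reached an unadjusted p under 0.05. The 5 markers of cortical glutamatergic neurons summed to 131.5 to 2681 CPM (median 1561) among High Drinkers. Among Low Drinkers they summed to 378.8 to 3184 CPM (median 1600). RNA of cortical type was thus present in both groups, and its level varied widely between libraries. The part of this RNA in the group differences and in the correlations between genes was not tested. In bulk tissue, fewer cells of a type and less RNA per cell cannot be told apart.

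Promoter sequences are shown for the 4 genes that mark the interval and for Perm1 and Plekhn1, a pair of neighbours that varied together within both groups. Each runs 5′ to 3′ on the strand of its gene, from 250 bases before to 50 bases after the RefSeq start (GRCm38.p6), with matches to CCAAT and GGGCGG on either strand and to CACGTG in capitals. TATAAA was searched as well and has no match in the 6 windows. They are Slc2a5 at chr4:150119094-150119393 on the plus strand, Megf6 at chr4:154170463-154170762 on the plus strand, Clcn6 at chr4:148038764-148039063 on the minus strand, Cenps at chr4:149137551-149137850 on the minus strand, Perm1 at chr4:156215677-156215976 on the plus strand and Plekhn1 at chr4:156228493-156228792 on the minus strand.
Slc2a5: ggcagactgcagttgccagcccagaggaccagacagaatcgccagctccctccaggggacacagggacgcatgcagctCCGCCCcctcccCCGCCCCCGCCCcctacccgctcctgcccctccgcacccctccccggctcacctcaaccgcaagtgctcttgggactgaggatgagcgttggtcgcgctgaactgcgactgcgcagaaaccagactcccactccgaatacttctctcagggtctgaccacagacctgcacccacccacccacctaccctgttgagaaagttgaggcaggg
Megf6: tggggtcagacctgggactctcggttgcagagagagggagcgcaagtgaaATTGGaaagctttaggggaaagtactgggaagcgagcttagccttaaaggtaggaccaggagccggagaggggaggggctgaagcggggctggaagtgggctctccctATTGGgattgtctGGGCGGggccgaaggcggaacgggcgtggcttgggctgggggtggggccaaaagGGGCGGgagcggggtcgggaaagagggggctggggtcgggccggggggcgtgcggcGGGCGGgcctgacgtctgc
Clcn6: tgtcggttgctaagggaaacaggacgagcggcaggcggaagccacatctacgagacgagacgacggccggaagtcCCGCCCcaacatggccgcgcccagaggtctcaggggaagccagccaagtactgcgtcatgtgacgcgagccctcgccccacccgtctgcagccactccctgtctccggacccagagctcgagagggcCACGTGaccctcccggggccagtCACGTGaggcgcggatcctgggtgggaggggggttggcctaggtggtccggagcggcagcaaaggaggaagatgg
Cenps: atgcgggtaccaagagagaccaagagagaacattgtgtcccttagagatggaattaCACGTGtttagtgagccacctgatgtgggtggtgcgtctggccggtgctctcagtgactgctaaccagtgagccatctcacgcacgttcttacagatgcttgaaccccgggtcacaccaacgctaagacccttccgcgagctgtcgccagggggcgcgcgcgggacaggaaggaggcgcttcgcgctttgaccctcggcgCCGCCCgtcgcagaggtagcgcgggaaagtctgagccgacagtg
Perm1: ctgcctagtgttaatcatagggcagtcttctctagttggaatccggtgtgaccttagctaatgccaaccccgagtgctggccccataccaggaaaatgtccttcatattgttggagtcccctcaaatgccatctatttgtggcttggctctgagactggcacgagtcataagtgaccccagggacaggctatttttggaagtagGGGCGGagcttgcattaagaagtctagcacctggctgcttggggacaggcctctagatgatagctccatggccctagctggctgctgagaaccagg
Plekhn1: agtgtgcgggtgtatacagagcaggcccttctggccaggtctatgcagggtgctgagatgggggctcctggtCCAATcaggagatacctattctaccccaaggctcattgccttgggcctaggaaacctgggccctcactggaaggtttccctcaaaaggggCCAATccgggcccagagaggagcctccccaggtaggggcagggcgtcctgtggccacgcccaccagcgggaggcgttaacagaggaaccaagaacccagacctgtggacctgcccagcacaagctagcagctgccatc

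Slc2a5 has 3 GGGCGG matches, Megf6 has 3 and a further 2 to CCAAT, Clcn6 has 1 and a further 2 to CACGTG, Cenps has 1 of each of GGGCGG and CACGTG, Perm1 has 1 GGGCGG match and Plekhn1 has 2 to CCAAT. Among all 32851 RefSeq promoters of the same length, 35.7% hold GGGCGG, 37.4% CCAAT, 7.15% CACGTG and 13.6% TATAAA. The 160 promoters of the 115 genes of the interval with an entry hold them in 63.1%, 36.3%, 9.38% and 3.13%. Median CG dinucleotides per window were 22 in the interval and 7 over all promoters. The genes of the interval had to reach a total of 84 reads here, and the set of all promoters was not filtered so. The 2 sets are therefore unlike, and no trait of the interval is read from these shares and medians. Clcn6 had 26, Cenps 26, Megf6 20 and Slc2a5 15, while Perm1 had 4 and Plekhn1 6. A match to these letters is a description of the sequence and not a binding site.

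High and Low Drinker animals were compared gene by gene with edgeR's quasi-likelihood test on the raw counts, with sheet set and sex as terms and Benjamini-Hochberg adjustment over all 16537 genes tested. Of the 165 genes, 28 fell below the filter on low counts, with mean levels of 0.0322 to 0.411 CPM, and 137 were tested. At an adjusted p under 0.05, 33 passed, 15 higher and 18 lower among High Drinkers. That is 24.1% of those tested, beside 3.94% over all tested genes (1.74% higher and 2.2% lower), and nothing is read from the difference since the interval was chosen on it. At an unadjusted p under 0.05 the count was 56, beside 18.3% over all genes. DESeq2 called 40 (beside 4.87%) and limma-voom 33 (beside 3.86%), and 32 of the 33 were called by all 3 tools. Most differences were small. The median size of the log2 fold change, sign ignored, was 0.08 over the tested genes of the interval and 0.06 over all tested genes. Among the 33 it was 0.33, beside 0.20 among all genes that passed, and 12 of the 33 differed by 0.5 or more on the log2 scale. Both directions were mixed along the chromosome, and 60 of the 137 had a higher fitted level among High Drinkers. Of the 33, 27 are protein coding, 3 antisense, 1 lincRNA, 1 processed pseudogene and 1 an experimentally unverified transcript.

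**Figure D1:**
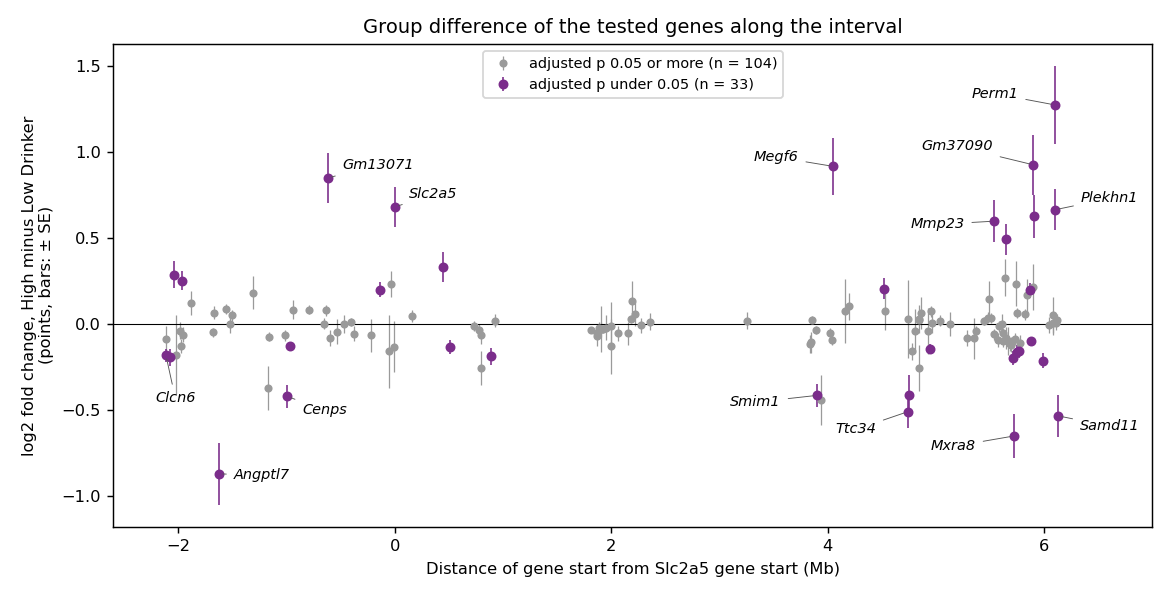
Log2 fold change (High minus Low Drinker, edgeR, bars ± SE) of the 137 tested genes against the distance of each gene's start from the start of Slc2a5 in Mb. The 33 genes with an adjusted p under 0.05 (purple) lie in 2 stretches with a gap between Per3 and Smim1, and both directions occur in each stretch.

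The genes that differed lay in 2 stretches, a division drawn after seeing their positions. From 148 to 150 Mb, 9 of 34 tested genes passed, and from 150 to 152 Mb 4 of 16 did. From 152 to 154 Mb none of 18 passed in edgeR, with 1 at an unadjusted p under 0.05 and 0 in both DESeq2 and limma-voom. Beyond 154 Mb, 14 of 57 passed up to 156 Mb and 6 of 12 after it. The gap is bounded by Per3 (start 151003652) and Smim1 (start 154020470), which are 3.02 Mb apart with 23 tested genes between them, whose largest absolute log2 fold change was 0.13. The plot of log2 fold change along the chromosome shows this stretch as a run of points near 0.

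The genes are described below by lists of function. Counts of passing genes in a list stand beside 24.1% of the interval's tested genes and 3.94% of all tested genes. Counts at an unadjusted p under 0.05 (edgeR) stand beside 56 of 137 in the interval and 18.3% of all. Nothing is read about a function from these counts. Sugar and ion transport is the role of Slc2a5 and Clcn6. Of 6 tested genes listed for solute transport, Slc2a5 was higher among High Drinkers and Clcn6 and Slc45a1 were lower, and the other 3 did not pass. The median log2 fold change of the 6 was -0.03.

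Slc2a5 (ENSMUSG00000028976, chr4:150119283-150144169) encodes GLUT5, a fructose transporter that in brain is known mainly from microglia. Its level ran from 1.37 through a median of 5.41 to 7.999 CPM among High Drinkers and from 1.07 through 3.11 to 6.51 CPM among Low Drinkers. The log2 fold change was 0.68 ± 0.12 (SE, adjusted p = 4.79e-05, edgeR). The ranges overlapped widely, yet 40 of 44 High Drinker animals lay above the Low Drinker median and 38 of 40 Low Drinker animals below the High Drinker median. The 8 microglia markers summed to 270 to 389 CPM (median 331) among High Drinkers and 277 to 384 CPM (median 327) among Low Drinkers. None passed the test in edgeR and 2 were at an unadjusted p under 0.05, Aif1 at -0.13 ± 0.05 and P2ry12 at -0.11 ± 0.05, both with a lower fitted level among High Drinkers. With their mean as a further term, an alternative added after seeing the data, the log2 fold change of Slc2a5 was 0.70. Of the 10 tested hexose transporter genes of the genome, Slc2a5 alone passed. Slc2a1, the transporter of the blood-brain barrier, differed by -0.06 ± 0.05 (adjusted p = 0.562, edgeR) and Slc2a3, the neuronal transporter, by 0.02 ± 0.02 (adjusted p = 0.734, edgeR).

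Clcn6 (ENSMUSG00000029016, chr4:148004259-148038821) encodes ClC-6, a chloride/proton exchanger of late endosomes in neurons. It was measured at 107 to 188 CPM (median 141) among High Drinkers and 130 to 201 CPM (median 167) among Low Drinkers. This gave a log2 fold change of -0.18 ± 0.04 (adjusted p = 0.000556, edgeR). Most High Drinker animals (37 of 44) were below the Low Drinker median, within ranges that overlap over most of their width. Among 9 tested CLC genes of the genome it was the only one past the threshold. Slc45a1, a proton-coupled sugar transporter, was at 59.6 ± 6.64 CPM among High Drinkers and 67.6 ± 11.03 CPM among Low Drinkers (SD, n = 44 and 40), a log2 fold change of -0.14 (adjusted p = 0.0426, edgeR). Without the 4 libraries that stood apart its adjusted p was 0.0677.

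Metabolic enzymes differed in both directions. Of 13 tested, 2 were higher among High Drinkers (H6pd and B3galt6) and 3 lower (Pgd and Mmel1 among them), with a median log2 fold change of 0.00 over the list. Both enzymes named for the pentose phosphate route passed, in opposite directions. Pgd, the cytosolic 6-phosphogluconate dehydrogenase, was at 34.6 ± 2.45 CPM against 37.8 ± 2.70 CPM (log2 fold change -0.13, adjusted p = 0.000267, edgeR). H6pd, which carries out the first steps of the same route inside the endoplasmic reticulum, was at 11.1 ± 1.63 CPM against 9.87 ± 1.51 CPM (0.20, adjusted p = 0.00329, edgeR). Here 39 of 44 High Drinker animals were below the Low Drinker median for Pgd and 32 above it for H6pd. B3galt6, a galactosyltransferase that builds the linker of proteoglycan sugar chains, was higher by 0.19 (adjusted p = 0.00422, edgeR). Mmel1, a membrane metallopeptidase related to neprilysin, was low in both groups, at 0.863 ± 0.366 CPM against 1.10 ± 0.446 CPM (-0.41, adjusted p = 0.0225, edgeR). Without the libraries that stood apart Mmel1 had an adjusted p of 0.0767.

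Secreted, matrix and cell surface proteins differed in both directions as well, with 2 of 10 tested genes higher (Megf6 and Mmp23) and 3 lower (Angptl7, Mxra8 and Sdf4). The list's median log2 fold change was -0.06.

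Megf6 (ENSMUSG00000057751, chr4:154170730-154275713) encodes an extracellular protein with many EGF-like domains. Levels spread from 1.27 through a median of 5.56 to 11.8 CPM among High Drinkers and from 0.828 through 2.25 to 11.9 CPM among Low Drinkers. As a log2 fold change this was 0.91 ± 0.16 (adjusted p = 0.000124, edgeR). The highest animals of both groups reached the same level, but 35 of 40 Low Drinker animals lay below the High Drinker median. Of 8 tested genes with multiple EGF-like domains in the genome, Megf6 alone passed. The nearest by p, Scarf2, differed by 0.23 ± 0.10 (adjusted p = 0.196, edgeR), and Megf10 by 0.10 ± 0.06 (adjusted p = 0.366, edgeR).

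Mxra8 (ENSMUSG00000029070, chr4:155839680-155844088) encodes an immunoglobulin-type adhesion protein that some alphaviruses use as a receptor. Its range was 2.85 to 15.9 CPM (median 5.97) among High Drinkers and 3.22 to 17.7 CPM (median 8.13) among Low Drinkers. On the log2 scale the difference was -0.65 ± 0.13 (adjusted p = 0.000516, edgeR). The groups overlapped nearly throughout, and 33 of 44 High Drinker animals were under the Low Drinker median. The endothelial and mural markers summed to 71.5 to 197 CPM among High Drinkers and 91.0 to 199 CPM among Low Drinkers, with 0 of 6 past the threshold and 0 at an unadjusted p under 0.05 in edgeR. With their mean as a further term, added after seeing the data, Mxra8 was at -0.61 and Megf6 at 0.97. Mmp23 (ENSMUSG00000029061, chr4:155650655-155653384), a membrane-anchored metalloproteinase, ran from 0.792 through 2.01 to 3.77 CPM among High Drinkers and from 0.559 through 1.28 to 2.45 CPM among Low Drinkers. The log2 fold change was 0.60 ± 0.12 (adjusted p = 0.000976, edgeR), and 37 of 44 High Drinker animals exceeded the Low Drinker median. Angptl7, a secreted angiopoietin-like protein, was near the detection limit, at 0.312 ± 0.197 CPM against 0.537 ± 0.238 CPM (-0.87, adjusted p = 0.00103, edgeR). Sdf4, a calcium-binding protein of the Golgi, was among the more abundant genes that passed, at 242 ± 16.1 CPM against 258 ± 16.4 CPM, and its difference of -0.10 was the smallest of the 33 (adjusted p = 0.00154, edgeR).

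Genes of the kinetochore, DNA repair and cell death list numbered 6 tested, of which Cenps was lower and the others did not pass. Cenps (ENSMUSG00000073705, chr4:149127121-149137629) encodes CENP-S, a histone-fold protein that pairs with CENP-X at the kinetochore and with FANCM at stalled replication forks. Levels were 1.501 to 4.04 CPM (median 2.17) among High Drinkers and 1.77 to 4.22 CPM (median 3.17) among Low Drinkers. This gave a log2 fold change of -0.42 ± 0.07, and the adjusted p of 7.31e-06 (edgeR) was the smallest of the interval. No more than 4 of 44 High Drinker animals were above the Low Drinker median, although the ranges coincide for most of their length. Of 14 tested CENP-S partner genes, Cenps included, no other passed. Cenpx differed by -0.12 ± 0.05 (adjusted p = 0.141, edgeR) and Fancm by 0.01 ± 0.04 (adjusted p = 0.950, edgeR). Dffa, the inhibitor of the apoptotic nuclease, differed by -0.07 ± 0.03 (adjusted p = 0.260, edgeR).

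Of 13 tested chromatin and transcription genes, Samd11 and Per3 were lower, and the median of the list was 0.02. Samd11 (ENSMUSG00000096351, chr4:156246973-156255338), a SAM domain protein known from photoreceptors, ranged from 1.16 through 2.30 to 5.26 CPM among High Drinkers and from 1.31 through 3.36 to 9.89 CPM among Low Drinkers. As a log2 fold change this was -0.53 ± 0.12 (adjusted p = 0.00330, edgeR). Its High Drinker values lay under the Low Drinker median in 39 of 44 animals. Per3, a period protein of the circadian clock, was at 60.7 ± 8.71 CPM against 67.9 ± 10.6 CPM (-0.19, adjusted p = 0.0138, edgeR). Casz1, a zinc finger transcription factor, differed by 0.18 ± 0.10 and did not pass (adjusted p = 0.314, edgeR). The abundant chromatin remodeller Chd5 was at 396 ± 87.0 CPM against 404 ± 98.1 CPM.

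RNA processing and translation held 11 tested genes, with Aurkaip1 and Pusl1 lower, none higher and 7 at an unadjusted p under 0.05. Aurkaip1, a protein of the small mitochondrial ribosomal subunit, was at 54.4 ± 5.28 CPM against 61.7 ± 10.4 CPM (-0.20, adjusted p = 0.000931, edgeR). Pusl1, a pseudouridine synthase-like protein, was at 21.5 ± 2.28 CPM against 24.2 ± 3.92 CPM (-0.16, adjusted p = 0.0244, edgeR). Its adjusted p was 0.111 without the libraries that stood apart. Mrpl20, of the large mitochondrial subunit, differed by -0.12 ± 0.04 and was just over the threshold (adjusted p = 0.0538, edgeR).

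Among 16 tested genes for vesicles, peroxisomes, cytoskeleton and cilia, Agtrap was higher and Ttc34 and Pex10 were lower. Ttc34 (ENSMUSG00000046637, chr4:154856200-154867125), a tetratricopeptide repeat protein, ran from 2.18 through 4.93 to 8.56 CPM among High Drinkers and from 2.80 through 6.43 to 11.2 CPM among Low Drinkers. On the log2 scale the difference was -0.51 ± 0.09 (adjusted p = 0.000147, edgeR). Most High Drinker animals, 36 of 44, were below the Low Drinker median. Pex10, a ubiquitin ligase of the peroxisome membrane, was at 13.7 ± 1.19 CPM against 15.03 ± 1.28 CPM (-0.15, adjusted p = 0.000527, edgeR). Its partner in peroxisome import Pex14 differed by -0.08 ± 0.03 (adjusted p = 0.0867, edgeR). Agtrap, which binds the angiotensin receptor and lowers its surface level, was at 6.97 ± 1.43 CPM against 5.78 ± 1.93 CPM (0.29, adjusted p = 0.0214, edgeR).

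Of 7 tested ubiquitin ligase and proteolysis genes, Fbxo44 alone passed. Fbxo44, an F-box adaptor of SCF ubiquitin ligases, was at 96.9 ± 15.9 CPM against 83.8 ± 16.3 CPM (0.25, adjusted p = 0.00165, edgeR), and 37 of 44 High Drinker animals exceeded the Low Drinker median. Its F-box neighbours Fbxo2 and Fbxo6 differed by -0.06 ± 0.04 (adjusted p = 0.448, edgeR) and -0.13 ± 0.04 (adjusted p = 0.0618, edgeR). Ube4b, a ubiquitin chain elongation factor, differed by 0.08 ± 0.03 (adjusted p = 0.0571, edgeR).

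None of 13 tested genes of growth factor, Wnt, Notch and PI3K signalling passed in edgeR, and 4 reached an unadjusted p under 0.05. The smallest p was that of Gpr157, an orphan receptor, with a log2 fold change of 0.23 ± 0.07 (adjusted p = 0.0613, edgeR). Mtor, the kinase of the growth control complexes, differed by 0.07 ± 0.04 (adjusted p = 0.336, edgeR). None of 5 tested genes of the TNF receptor superfamily and immune list passed in edgeR, with 1 at an unadjusted p under 0.05. That gene, Tnfrsf9, differed by -0.26 ± 0.10 (adjusted p = 0.142, edgeR).

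Perm1 (ENSMUSG00000078486, chr4:156215868-156221307), a regulator of mitochondrial genes known from muscle, had the largest log2 fold change of the interval at 1.27 ± 0.23 (adjusted p = 9.73e-05, edgeR). It was detected at 0.0299 to 1.54 CPM (median 0.816) among High Drinkers and 0.0311 to 1.02 CPM (median 0.230) among Low Drinkers. The lowest animals of both groups were close to 0, and 40 of 44 High Drinker animals were above the Low Drinker median. Plekhn1 (ENSMUSG00000078485, chr4:156221456-156228542), a pleckstrin homology domain protein whose end faces the end of Perm1 at a distance of 149 bases, ran from 3.17 through 8.70 to 15.01 CPM among High Drinkers and from 2.08 through 5.01 to 10.01 CPM among Low Drinkers. The log2 fold change was 0.66 ± 0.12 (adjusted p = 0.000128, edgeR). Here 37 of 40 Low Drinker animals lay below the High Drinker median.

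Smim1 (ENSMUSG00000078350, chr4:154020470-154026230), a small membrane protein that carries the Vel blood group antigen on red cells, ran from 9.67 through 12.8 to 18.5 CPM among High Drinkers and from 10.8 through 17.2 to 28.3 CPM among Low Drinkers. This gave a log2 fold change of -0.42 ± 0.07 (adjusted p = 9.98e-06, edgeR). Only 2 of 44 High Drinker animals exceeded the Low Drinker median. The 5 blood markers summed to 16.1 to 85.6 CPM among High Drinkers and 21.3 to 104 CPM among Low Drinkers, with 0 past the threshold and 0 at an unadjusted p under 0.05 in edgeR. Their part in the result was not tested. Cptp, a ceramide-1-phosphate transfer protein, was lower by 0.16 on the log2 scale (-0.16, adjusted p = 0.0165, edgeR), and 9430015G10Rik was at -0.21 (adjusted p = 0.000726, edgeR).

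Noncoding entries passed as well, all of them higher among High Drinkers. Gm37090 (ENSMUSG00000103183, chr4:156018556-156022660) ran from 1.252 through 6.94 to 11.9 CPM among High Drinkers and from 0.994 through 2.59 to 10.2 CPM among Low Drinkers. As a log2 fold change this was 0.92 ± 0.18 (adjusted p = 0.000278, edgeR), and 40 of 44 High Drinker animals were above the Low Drinker median. Gm16008 (ENSMUSG00000087381, chr4:156022008-156031643), an antisense RNA that overlaps Gm37090 on the same strand, ran from 1.55 through 4.56 to 8.99 CPM against 1.36 through 2.90 to 6.96 CPM. Its log2 fold change was 0.62 ± 0.13 (adjusted p = 0.000921, edgeR). Their shared bases make the counts of both uncertain. Gm26840 (ENSMUSG00000097728, chr4:155769969-155776161), a lincRNA, ran from 0.569 through 1.20 to 1.80 CPM among High Drinkers and from 0.383 through 0.835 to 1.69 CPM among Low Drinkers, a log2 fold change of 0.49 ± 0.09 (adjusted p = 0.000151, edgeR). The pseudogene Gm13071 differed by 0.85 (adjusted p = 5.51e-05, edgeR), Gm13091 by 0.33 (adjusted p = 0.0159, edgeR) and Gm13111 by 0.20 (adjusted p = 0.0463, edgeR). Without the libraries that stood apart the adjusted p of Gm13111 was 0.0817.

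Because the libraries do not mark strand, reads from overlapping genes on opposite strands cannot be told apart. Of the 33 genes, 8 overlap an exon of another gene. They are the pair Gm37090 and Gm16008, and Smim1 with Lrrc47, Ttc34 with Gm13112, Mmel1 with Fam213b, Gm26840 with Vwa1, Pusl1 with Ints11 and Samd11 with Noc2l. Gm13071 is a processed pseudogene and may share reads with its parent gene.

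**Figure D2:**
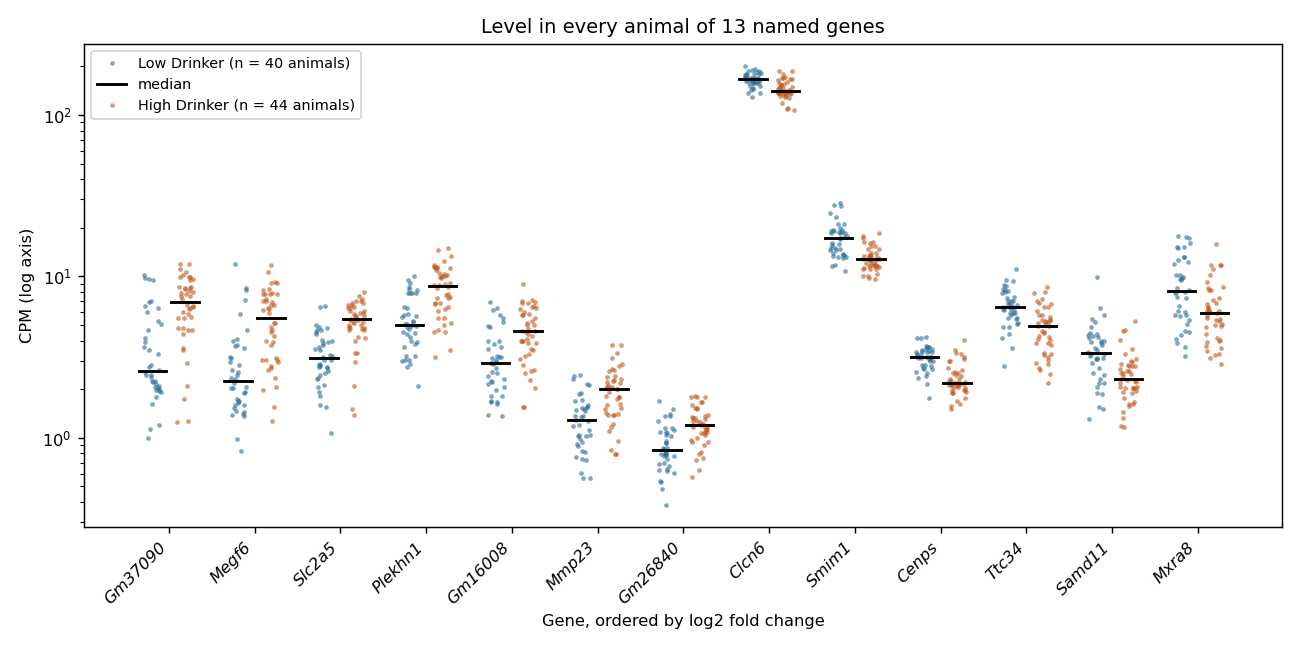
CPM (log axis) of every animal for 13 genes, the 12 with the largest differences among those that passed and averaged at least 1 CPM, and Clcn6, ordered by log2 fold change. Points are animals (44 High Drinker, 40 Low Drinker) and lines are medians. In each gene the medians are apart and the ranges of the groups overlap.

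The spread of single animals in the plot of CPM by animal is wide and continuous, and in none of the 13 genes did the groups separate. Levels per kilobase of gene length ranked in another order than the differences. Clstn1, a synaptic calsyntenin, was highest at 311 CPM per kilobase, followed by Gnb1, a G protein beta subunit, at 160 and Acot7, an acyl-CoA thioesterase of neurons, at 125. None of these 3 passed the group test, with log2 fold changes of -0.04, -0.04 and -0.06 (adjusted p = 0.809, 0.467 and 0.522, edgeR). Of the 33 that passed, Sdf4 was at 40.8, Aurkaip1 at 32.8, Fbxo44 at 30.0 and Clcn6 at 26.2 CPM per kilobase, and Slc2a5, Cenps and Megf6 at 1.28, 1.43 and 0.554.

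The direction of each of the 33 differences was the same in females and in males fitted alone. It was also the same in sheet sets 1 and 2 fitted alone. The same animals had put these genes past the threshold in the fit to all libraries, so this is a description and not independent support. In females alone 5 of the interval's genes passed, while over all genes tested there 0.212% did. In males alone 11 passed, beside 0.652% of all genes. In sheet set 1 alone 4 passed, beside 0.462% of all genes, and in sheet set 2 alone 19, beside 0.449%. Only 2 of the 33 passed in both of these sets. Cenps was at -0.40 in females and -0.41 in males, Slc2a5 at 0.67 and 0.69, and Clcn6 at -0.19 in each sex. Megf6 was at 0.62 in females and 1.23 in males, and Perm1 at 1.04 and 1.65.

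Whether the group difference itself differed was tested as an interaction. For sex, 0 of 137 genes passed in edgeR (5 at an unadjusted p under 0.05), beside 0.0% of all genes and 5.76% at the unadjusted threshold. For sheet sets 1 and 2, 0 of 137 passed (4 at an unadjusted p under 0.05), beside 0.00606% of all genes and 2.05% at the unadjusted threshold. The smallest unadjusted p of the interval for sheet set was that of Megf6, which differed by 0.60 between the groups in set 1 and by 1.66 in set 2, a gap of 1.04 (p = 0.00253, adjusted p = 0.997, edgeR). Angptl7 was at -0.63 in set 1 and -1.61 in set 2 (adjusted p of the difference 0.997, edgeR).

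**Figure D3:**
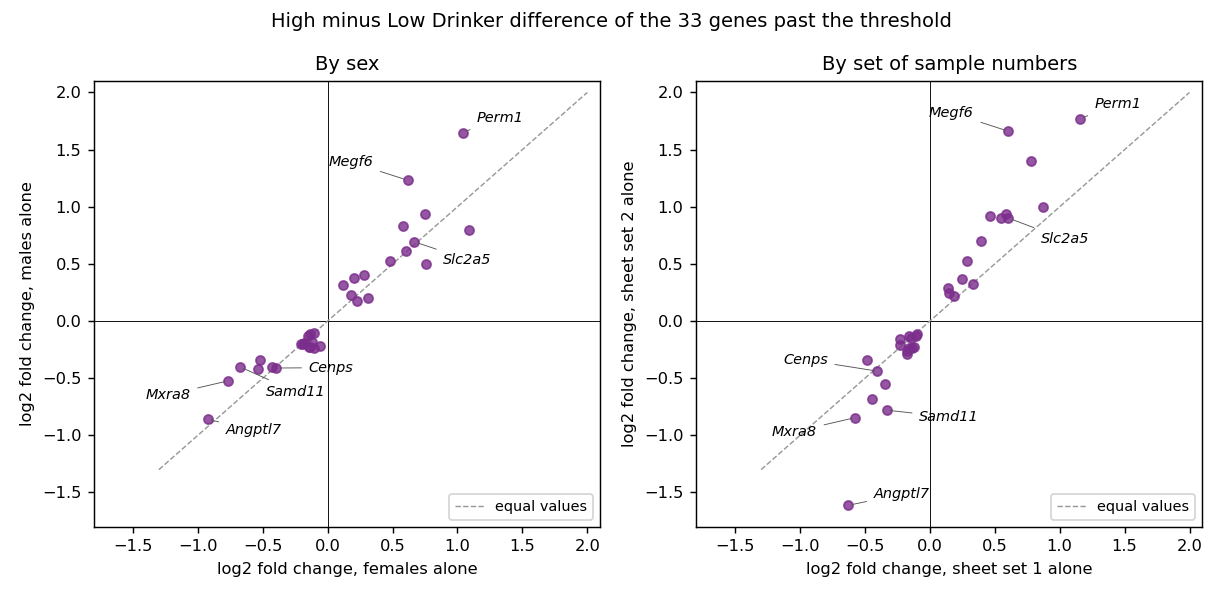
Log2 fold change (High minus Low Drinker, edgeR) of the 33 genes in females against males (left) and in sheet set 1 against sheet set 2 (right). Each point is a gene and the dashed line marks equal values. All points fall in the quadrants of equal sign, and Megf6 and Perm1 lie above the line in both panels.

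Sex is a measure that did not choose the interval. Across all 84 animals 0 of the 137 genes differed between females and males (edgeR, adjusted p under 0.05), with 4 at an unadjusted p under 0.05. Over all tested genes 0.0907% passed and 3.68% were under the unadjusted threshold. Mmel1 was the only one of the 33 group-different genes among those 4, with a female minus male log2 fold change of 0.25 (p = 0.0348, adjusted p = 1.0, edgeR).

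Spread between animals was compared with limma on absolute deviations of log2 CPM from the group median. Of 137 genes 0 passed an adjusted p of 0.05 (limma), with 7 at an unadjusted p under 0.05, beside 0.0665% past the threshold and 4.81% under the unadjusted one over all genes. Smim1 had the smallest p, with a mean deviation of 0.163 among High Drinkers and 0.281 among Low Drinkers (p = 0.000268, adjusted p = 0.246, limma). Slc45a1 deviated by 0.107 and 0.160 and did not pass.

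Neighbouring genes were then compared across animals within each group, a measure that does not use the group means. Log2 CPM values were taken after removing sex and sheet set, and each of the 136 adjacent pairs of tested genes was correlated over 44 High Drinker and over 40 Low Drinker animals. Permutation tests within sex and sheet set (100000 resamples, two-sided) were adjusted over the 272 correlations. The median Pearson r was 0.11 among High Drinkers and 0.20 among Low Drinkers, beside 0.13 and 0.14 over all 16511 adjacent pairs of the genome. An r of 0.5 or more was found in 21 pairs (15.4%) among High Drinkers, beside 15.6% of all pairs, and in 27 pairs (19.9%) among Low Drinkers, beside 17.4%. Both shares are near the background. With the first 5 principal components removed the shares were 10.3% in each group, beside 7.88% and 8.41% of all pairs. With the mean of the medium spiny neuron markers removed they were 14.7% in each group, beside 11.9% and 14.7%. The single pairs below are given with only sex and sheet set removed, so their r can include differences of tissue composition between animals. All pairs of tested genes of the interval were also grouped by distance. An r of 0.5 or more in size was found in 13.7% (High Drinkers) and 17.6% (Low Drinkers) of pairs under 0.1 Mb apart. At 4 to 9 Mb apart the shares were 9.95% and 14.7%.

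Perm1 and Plekhn1 had the highest correlation among High Drinkers, with r = 0.83 and Spearman's rho = 0.82 (adjusted permutation p = 0.00016 and 0.000227). In Low Drinker animals r was 0.79 and rho 0.75 (adjusted permutation p = 0.00016 and 0.000227). The unadjusted p of 1e-05 is the smallest these permutations can give. Without the 2 animals farthest from the median of Perm1, r was 0.86 and 0.75. The pair has no shared exon bases, and its promoters are the 2 with the fewest CG dinucleotides among the 6 shown above. High values were not limited to this neighbour. Perm1 had r = 0.69 and 0.68 with Gm37090 and 0.65 and 0.70 with B3galt6 (High and Low Drinkers). With Slc2a5 it had 0.70 and 0.35. These 3 genes are named for the size of their r. Plekhn1 also correlated with the next gene, ENSMUSG00000078484, with r = 0.70 and rho = 0.78 among High Drinkers (adjusted permutation p = 0.00016 and 0.000227) and r = 0.49 and rho = 0.37 among Low Drinkers (adjusted permutation p = 0.00807 and 0.0533), and r = 0.69 and 0.38 without the 2 farthest animals.

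Gm37090 and Gm16008, whose exons overlap, had r = 0.79 and rho = 0.77 among High Drinkers and r = 0.81 and rho = 0.79 among Low Drinkers (adjusted permutation p = 0.00016 for r and 0.000227 for rho in both). Without the 2 farthest animals r was 0.70 and 0.76. Whether reads in the overlapping bases were counted for both genes or dropped is not known. Their part in this correlation was not tested.

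Among other pairs with a high r in either group, Chd5 and the potassium channel subunit gene Kcnab2, which end 548 bases apart, had r = 0.74 and rho = 0.70 among High Drinkers and r = 0.76 and rho = 0.69 among Low Drinkers (adjusted permutation p of r = 0.000272 and 0.000371, of rho = 0.000389 and 0.000604). Plekhg5, a guanine nucleotide exchange factor, and Tnfrsf25, a death receptor, had r = 0.74 and rho = 0.76 against r = 0.71 and rho = 0.73 (adjusted permutation p = 0.00016 for r and 0.000227 for rho in both). For Phf13 and Klhl21, a chromatin reader and a ubiquitin ligase adaptor, r was 0.72 and rho 0.67 among High Drinkers and r 0.65 and rho 0.68 among Low Drinkers (adjusted permutation p of r = 0.000272 and 0.000435, of rho = 0.000453 and 0.000389). Without the 2 farthest animals these r values were 0.70 and 0.65 for the first pair, 0.69 and 0.70 for the second and 0.64 and 0.63 for the third. The difference of r between the groups had a permutation p of 0.893, 0.770 and 0.557 in these 3 pairs (adjusted permutation p = 0.978, 0.974 and 0.941). Prdm16, a transcription regulator, and Gm13111, annotated as an antisense RNA just beyond it, had r = 0.58 and rho = 0.55 among High Drinkers (adjusted permutation p = 0.000583 and 0.00224) and r = 0.76 and rho = 0.77 among Low Drinkers (adjusted permutation p = 0.00016 and 0.000227), and r = 0.52 and 0.73 without the 2 farthest animals.

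Cenps and Pgd, neighbours that were both lower among High Drinkers, had r = 0.33 and rho = 0.21 among High Drinkers (adjusted permutation p = 0.0814 and 0.327) and r = 0.55 and rho = 0.53 among Low Drinkers (adjusted permutation p = 0.00490 and 0.0108), with r = 0.19 and 0.47 without the 2 farthest animals. Slc2a5 had r = 0.31 and rho = 0.23 with Gm13093 before it among High Drinkers (adjusted permutation p = 0.118 and 0.279) and r = 0.06 and rho = -0.02 among Low Drinkers (adjusted permutation p = 0.804 and 0.958), and r = 0.27 and -0.09 without the 2 farthest animals. Megf6 and Arhgef16, an exchange factor gene after it, had r = 0.34 and rho = 0.31 (adjusted permutation p = 0.0699 and 0.101) and r = 0.51 and rho = 0.55 (adjusted permutation p = 0.00408 and 0.00340), with r = 0.34 and 0.52 without the 2 farthest animals.

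**Figure D4:**
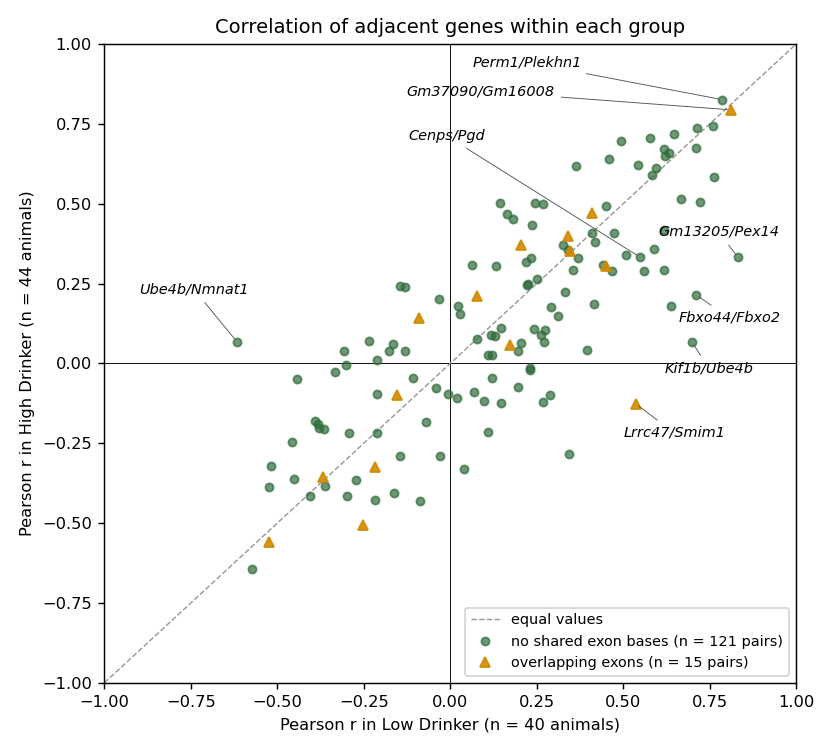
Pearson r of adjacent tested genes over 40 Low Drinker animals (horizontal) and 44 High Drinker animals (vertical), 136 pairs, after removing sex and sheet set. Triangles are the 15 pairs with overlapping exons and the dashed line marks equal values. Perm1/Plekhn1 and Gm37090/Gm16008 are at the upper right, Kif1b/Ube4b and Lrrc47/Smim1 lie below the line, and Ube4b/Nmnat1 lies above it on the left.

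The difference of each correlation between the groups was tested by permuting the group labels within sex and sheet set. None of 136 pairs passed (adjusted permutation p), with 7 at an unadjusted p under 0.05. With Spearman's rho 0 passed, with 6 at an unadjusted p under 0.05. Both counts are near what an unadjusted threshold of 0.05 gives by chance among 136 pairs. The test was not run over all adjacent pairs of the genome, so no background share is given. The pairs below are descriptions only. The smallest p belonged to Kif1b, a kinesin of synaptic vesicle precursors, and Ube4b. They had r = 0.07 and rho = 0.02 among High Drinkers (adjusted permutation p = 0.765 and 0.936) and r = 0.70 and rho = 0.61 among Low Drinkers (adjusted permutation p = 0.000523 and 0.000680), with r = 0.02 and 0.52 without the 2 farthest animals. The permutation p of the difference was 0.00056 (adjusted permutation p = 0.0762). Gm13205 and Pex14 had r = 0.33 and rho = 0.31 (adjusted permutation p = 0.0866 and 0.119) and r = 0.83 and rho = 0.83 (adjusted permutation p = 0.00016 and 0.000227), with r = 0.37 and 0.80 without the 2 farthest animals, and a permutation p of the difference of 0.0018 (adjusted permutation p = 0.122). Of the 5 pairs with the largest difference in r, these are 2, and the other 3 follow. Ube4b and Nmnat1, an enzyme of NAD synthesis in the nucleus, had the largest, in the other direction. Their r was 0.07 and rho -0.01 among High Drinkers (adjusted permutation p = 0.765 and 0.966), against r = -0.62 and rho = -0.48 among Low Drinkers (adjusted permutation p = 0.00315 and 0.0135). Without the 2 farthest animals r was 0.05 and -0.38, and the permutation p of the difference was 0.0192 (adjusted permutation p = 0.436). Lrrc47 and Smim1, whose exons overlap, had r = -0.13 and rho = -0.16 (adjusted permutation p = 0.575 and 0.468) and r = 0.54 and rho = 0.46 (adjusted permutation p = 0.00474 and 0.0188), with r = -0.17 and 0.49 without the 2 farthest animals. The permutation p of that difference was 0.00494 (adjusted permutation p = 0.224). Angptl7 and Exosc10, a subunit of the RNA exosome, had r = -0.28 and rho = -0.21 (adjusted permutation p = 0.145 and 0.306) and r = 0.34 and rho = 0.34 (adjusted permutation p = 0.0992 and 0.0997), with r = -0.12 and 0.39 without the 2 farthest animals, and a permutation p of the difference of 0.00715 (adjusted permutation p = 0.243). In 4 of the 5 pairs r was higher among Low Drinkers and in Ube4b/Nmnat1 it was higher among High Drinkers. No difference passed the adjustment, and the 5 were picked for their size, so nothing is read from these directions.

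**Figure D5:**
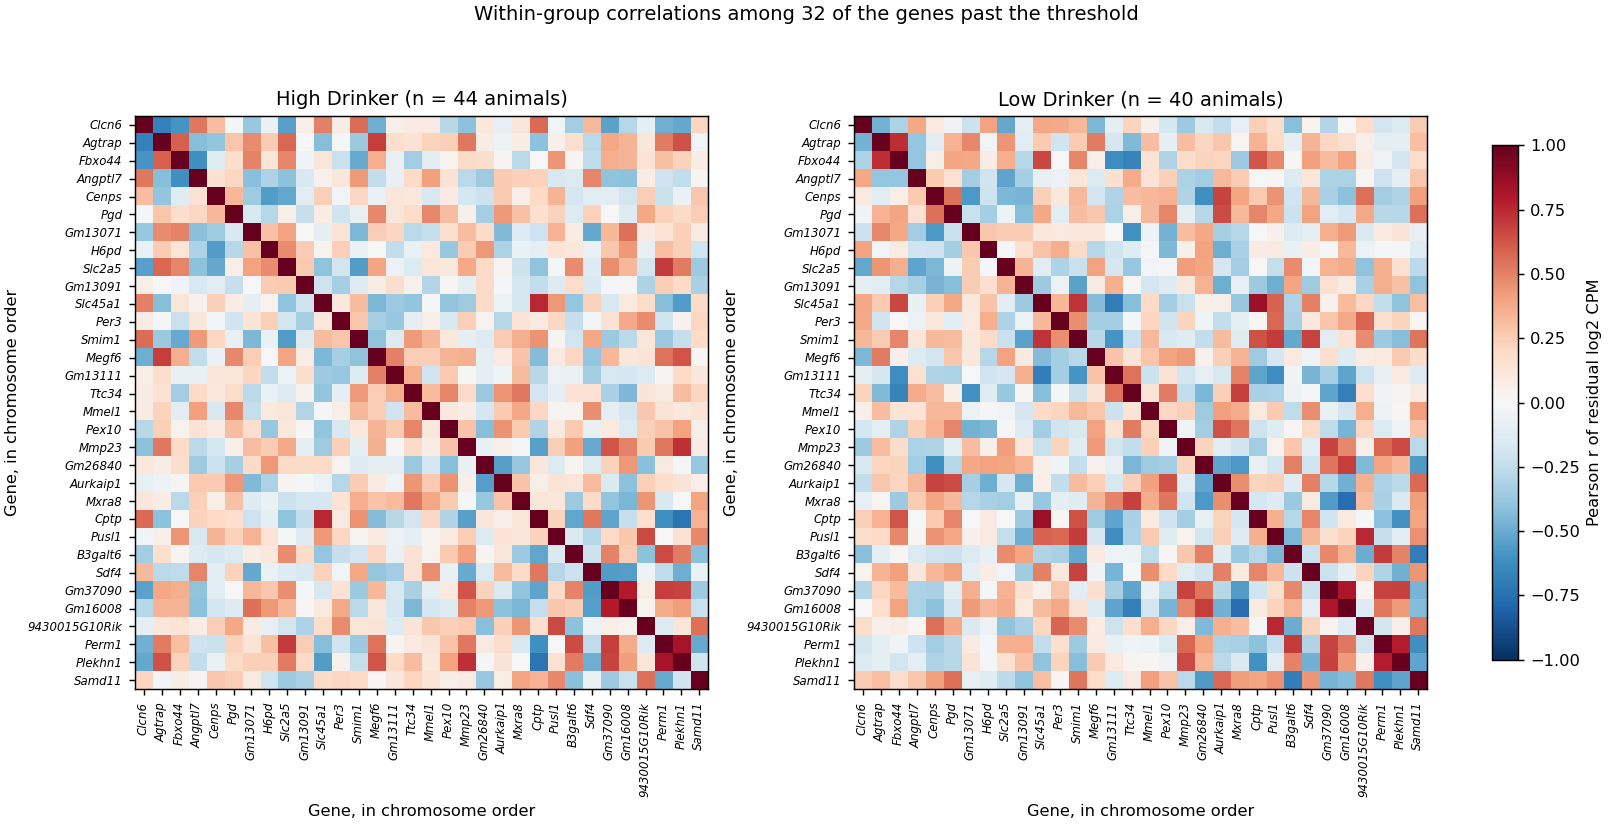
Pearson r of log2 CPM, after removing sex and sheet set, between all pairs of 32 of the genes that passed, in chromosome order, over 44 High Drinker (left) and 40 Low Drinker animals (right). Red is positive and blue negative. Perm1 with Plekhn1 and Gm37090 with Gm16008 are dark red beside the diagonal in both panels, and Slc45a1 with Cptp is the strongest pair far from it.

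All pairs of the 33 genes were also described together, with the sign of r turned for pairs whose group differences had opposite signs, a summary added after seeing the data. A positive value then means that animals within a group vary along the direction of the group difference. The median of the 528 pairs was 0.19 among High Drinkers and 0.22 among Low Drinkers. For pairs under 1 Mb apart it was 0.26 and 0.32. It was 0.12 and 0.15 for pairs 1 to 4 Mb apart, and 0.18 and 0.19 for pairs 4 Mb or more apart. Between these genes and genes on other chromosomes that passed it was 0.08 and 0.12. Between passing genes of 2 different other chromosomes it was 0.14 and 0.19, beside 0.18 and 0.19 for the distant genes of the interval. These pairs share the same animals and carry no test.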

How the data were processed

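Ventrolateral striatum RNA of 84 mice was extracted with Trizol, amplified with an Ovation kit and made into libraries with a TruSeq DNA kit that does not mark strand, then sequenced 6 per lane as single reads of 100 bp, per the labels' protocols. The table deposited by the authors holds unnormalized counts of reads for each gene in each animal. The submitters' processing notes name mm10 as the build and list STAR, FastQC, edgeR, Subread and featureCounts. Tool versions, strand handling and the treatment of multi-mapped reads: not given in the sources used here. Amplified cDNA holds duplicate molecules that counts cannot tell apart. The deposited gene length was used, as the authors give it, for levels per kilobase. The members, lists and tests were chosen with earlier results of these data known.

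Counts were analysed with edgeR 4.0.16 in R 4.3.3 (filterByExpr by group, TMM, quasi-likelihood F-test with sheet set, sex and group, Benjamini-Hochberg over all tested genes, threshold 0.05), and spread with limma 3.58.1 on log2 CPM (prior count 2). CPM are given with SD over animals (n = 44 and 40) and log2 fold changes with SE. Correlations used Python 3.11.15 and scipy 1.17.1. Alternatives were DESeq2 1.42.0, limma-voom, RLE normalization, no filter on low counts (every gene with a total of 84 or more), other covariates, 5 surrogate variables (sva 3.50.0), single sexes or sheet sets, and leaving out libraries over 4 median absolute deviations below the median correlation. Counted reads per library ranged from 22190363 to 41300401. The scripts were tested on simulated data. Animals carry separate numbers, and 0 pairs of libraries were identical.

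Genes named in full are the 4 markers, those past the threshold with the 12 largest differences among means of at least 1 CPM in detail, the smallest p-values of each list, the 5 pairs of largest r in each group, the 5 pairs of largest difference in r between the groups, the 3 highest levels per kilobase and the members next to each limit. The ranges of Perm1, the values of Slc2a1, Slc2a3, Fancm, Chd5, Pex14, Fbxo2, Mtor, Tas1r1, Tas1r3, Trp73 and Tprgl, and the pairs of the markers and of Plekhn1 were chosen after their values were seen. The 6 genes left out by the rule are not reported here, nor are some other genes, which stay in the counts.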

Additional observations from a re-analysis of the deposited data

How the results depend on the processing

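No paired analysis was possible because each library comes from a different animal, each animal is in a single group and the labels name no pairs. The labels used here give no litter or family either. Relatedness of the animals was not modelled, and the tests and permutations treat each animal as independent. The labels give no replicate numbers, and the numbers used here only name animals. The 33 genes that passed kept their direction under all 16 alternatives. Of the 33, 29 were past the threshold in each of the 12 alternatives that use all or nearly all libraries, and Slc45a1, Gm13111, Mmel1 and Pusl1 were not. The count was 40 with DESeq2, 33 with limma-voom, 33 with RLE normalization (beside 3.93% of all tested genes), 35 without the low-count filter (beside 3.17%) and 29 without the 4 libraries that stood apart (beside 2.61%), and 32 of the 33 passed in both DESeq2 and limma-voom. With 5 surrogate variables 55 genes passed (25 higher, 30 lower), and calls over all tested genes rose as well, to 14.8% from 3.94%, and the cause was not tested. Fits to a single sex or sheet set each called fewer than 33 of the interval's genes. The counts were 5 in females alone (2 higher, 3 lower) and 11 in males alone (7 higher, 4 lower). They were 4 in sheet set 1 alone (1 higher, 3 lower) and 19 in sheet set 2 alone (11 higher, 8 lower). These counts did not follow the number of animals, since sheet set 1 has 48 libraries and sheet set 2 has 30. The reason was not tested. With the first 5 principal components removed, the median r of adjacent genes was 0.044 among High Drinkers and 0.0794 among Low Drinkers, and 14 pairs in each group had an r of 0.5 or more (10.3%, beside 7.88% and 8.41% of all adjacent pairs). Without pairs whose exons overlap, 20 of 121 pairs (16.5%) reached 0.5 among High Drinkers and 25 (20.7%) among Low Drinkers. Over all adjacent pairs of the genome, overlapping ones included, the shares were 15.6% and 17.4%. Counting depth limits genes such as Perm1 and Angptl7, where 1 read is a large share of the level.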

Other observations

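Tas1r3 lies in the interval (chr4:155859268-155863362, between Dvl1 and Cptp) and encodes a subunit of the sweet taste receptor, known as the Sac locus of saccharin preference in mice. It is named here after its values were seen. Its level ran from 0.149 through a median of 0.339 to 0.703 CPM among High Drinkers and from 0.0928 through 0.318 to 0.653 CPM among Low Drinkers. The log2 fold change was 0.23 ± 0.13 and did not pass (adjusted p = 0.340, edgeR), with 26 of 44 High Drinker animals above the Low Drinker median. Tas1r1, the umami receptor subunit in the stretch between Per3 and Smim1, was at 0.308 ± 0.125 CPM against 0.319 ± 0.129 CPM, which is -0.03 ± 0.13 on the log2 scale (adjusted p = 0.939, edgeR). Both genes were near the detection limit in this tissue.

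Trp73, a relative of the tumour suppressor p53, differed by -0.44 ± 0.15 and did not pass (adjusted p = 0.0680, edgeR). Tprgl, a presynaptic protein gene just before Megf6, was at 138 ± 11.6 CPM against 145 ± 16.8 CPM (-0.10 ± 0.03, adjusted p = 0.0534, edgeR), and 34 of 44 High Drinker animals were below the Low Drinker median.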
